A study of Mus musculus with 82 samples.

Results

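The 9 genes described here are the core of the Hedgehog pathway: the ligands Shh, Ihh and Dhh, the receptor Ptch1, the ligand-binding inhibitor Hhip, the signal transducer Smo, and the transcription factors Gli1, Gli2 and Gli3. They were chosen by name, to describe the pathway and to ask whether the level of Smo goes with the levels of Gli1 and Ptch1. All 9 were among the 47480 genes of the deposited count table, and all 9 were among the 22847 genes that passed the filter on low counts.

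Messenger RNA had been sequenced from 82 untreated mouse mammary tumours of 13 models. The BALB/c models were 2153 (n = 7 libraries), 2208 (n = 12), 2224 (n = 4), 2225 (n = 10), 2250 (n = 11), 2336 (n = 5), 4T1 (n = 5), 9263 (n = 7) and T12 (n = 3), the FVB models were KPB1-A (n = 2), MMTV-NEU (n = 8) and MMTV-PYMT (n = 5), and E0771 (n = 3) was on C57BL/6. The labels give strain and model name and state no genotype, age or normal tissue control. 4T1 and E0771 are established mouse mammary tumour lines, and in the MMTV models a viral promoter active in mammary epithelium drives an oncogene. Total counts per library ran from 14.4 to 133 M. The series text calls the libraries biological replicates, but nothing says whether each came from an animal of its own, and the p-values reflect only how these libraries vary, which may in part be technical. Each model was on 1 strain, and effects of strain and model cannot be told apart.

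In Hedgehog signalling a secreted ligand binds Ptch1, which otherwise holds Smo inactive. Released Smo acts through the primary cilium and leads the GLI proteins to switch on target genes, among which Gli1, Ptch1 and Hhip are classical readouts. In the mammary gland Ihh and Dhh are known from epithelium, GLI2 from stroma, and GLI3 as a repressor needed during bud formation.

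The question is whether Smo goes with Gli1 and Ptch1, but no RefSeq promoter was at hand for Gli1. The 250 bases before the RefSeq start of Smo, the readout Ptch1 and the ligand Dhh are printed below. They are as in RefSeq, build GRCm38.p6, 5′ to 3′ on the strand of the gene. The capitals mark GC boxes, GGGCGG or CCGCCC, the motif of SP1-like factors. The Smo stretch lies at chr6:29735247-29735496 on the plus strand, the Dhh stretch at chr15:98898541-98898790 on the minus strand and the Ptch1 stretch at chr13:63565736-63565985 on the minus strand. The Ptch1 stretch lies inside the longer gene span that GENCODE gives and is printed further on, downstream of the GENCODE start.
Smo: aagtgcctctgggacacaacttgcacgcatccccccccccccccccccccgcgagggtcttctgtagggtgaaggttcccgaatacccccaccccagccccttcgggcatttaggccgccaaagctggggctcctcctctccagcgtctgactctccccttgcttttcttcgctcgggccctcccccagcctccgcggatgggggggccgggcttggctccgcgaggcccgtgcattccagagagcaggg
Dhh: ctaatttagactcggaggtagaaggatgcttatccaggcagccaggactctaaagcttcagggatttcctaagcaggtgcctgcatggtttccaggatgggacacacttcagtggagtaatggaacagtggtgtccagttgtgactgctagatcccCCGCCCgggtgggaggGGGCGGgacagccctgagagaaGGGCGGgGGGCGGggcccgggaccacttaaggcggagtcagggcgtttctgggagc
Ptch1: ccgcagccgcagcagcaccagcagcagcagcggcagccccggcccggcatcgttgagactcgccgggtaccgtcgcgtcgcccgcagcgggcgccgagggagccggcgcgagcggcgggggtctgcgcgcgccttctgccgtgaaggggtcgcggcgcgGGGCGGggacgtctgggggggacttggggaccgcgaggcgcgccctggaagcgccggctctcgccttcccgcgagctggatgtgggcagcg
The Smo stretch holds no GC box and is 68.4% G or C, the Dhh stretch holds 4 (59.6%) and the Ptch1 stretch 1 (78.4%). RefSeq promoters of 300 bases (250 before the start and 50 after) were at hand for 7 of the 9 genes, all but Shh and Gli1, and 6 of these 7 hold a GC box on either strand, against 35.7% of all 32851 promoters. The GLI consensus GACCACCCA or its reverse complement TGGGTGGTC was found in none of the 7 and in 0.253% of all promoters. Neither motif contains the other. A missing match says only that these letters are not in this window.

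Each of the 9 genes differed among the 13 models by edgeR's F test, from adjusted p = 1.09e-55 for Smo to 2.29e-08 for Gli2. Since 98.2% of all genes tested also differed, this does not single the pathway out. Each model was then set against the unweighted mean of the other 12, on the log2 scale ± SE, with a call at an adjusted p under 0.05 from edgeR's quasi-likelihood test. Levels are given in CPM, the counts of a gene scaled to library size, as mean ± SD over libraries. Shh and Hhip are given by level and call only, since all libraries of at least 1 model were at 0. The log2 mean of such a model is not finite. P-values of these comparisons are therefore left out, and the calls carry the same limit. The other 7 genes gave 49 calls over the 13 models. The highest number of higher calls was 4, in 2250 (Dhh, Ptch1, Smo and Gli1), with no lower call, and 2224 had no call among the 7. For comparison, the share of all genes called in either direction was 53.1% in 2153, 54.2% in 2208, 38.7% in 2224, 61% in 2225, 59.8% in 2250, 55.5% in 2336 and 49.1% in 4T1. The same share was 54.4% in 9263, 56.4% in E0771, 39.2% in KPB1-A, 62.4% in MMTV-NEU, 51.5% in MMTV-PYMT and 48.2% in T12. The share called higher was 32.1% in 2250, 24.4% in T12 and 32.5% in 9263.

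**Figure D1:**
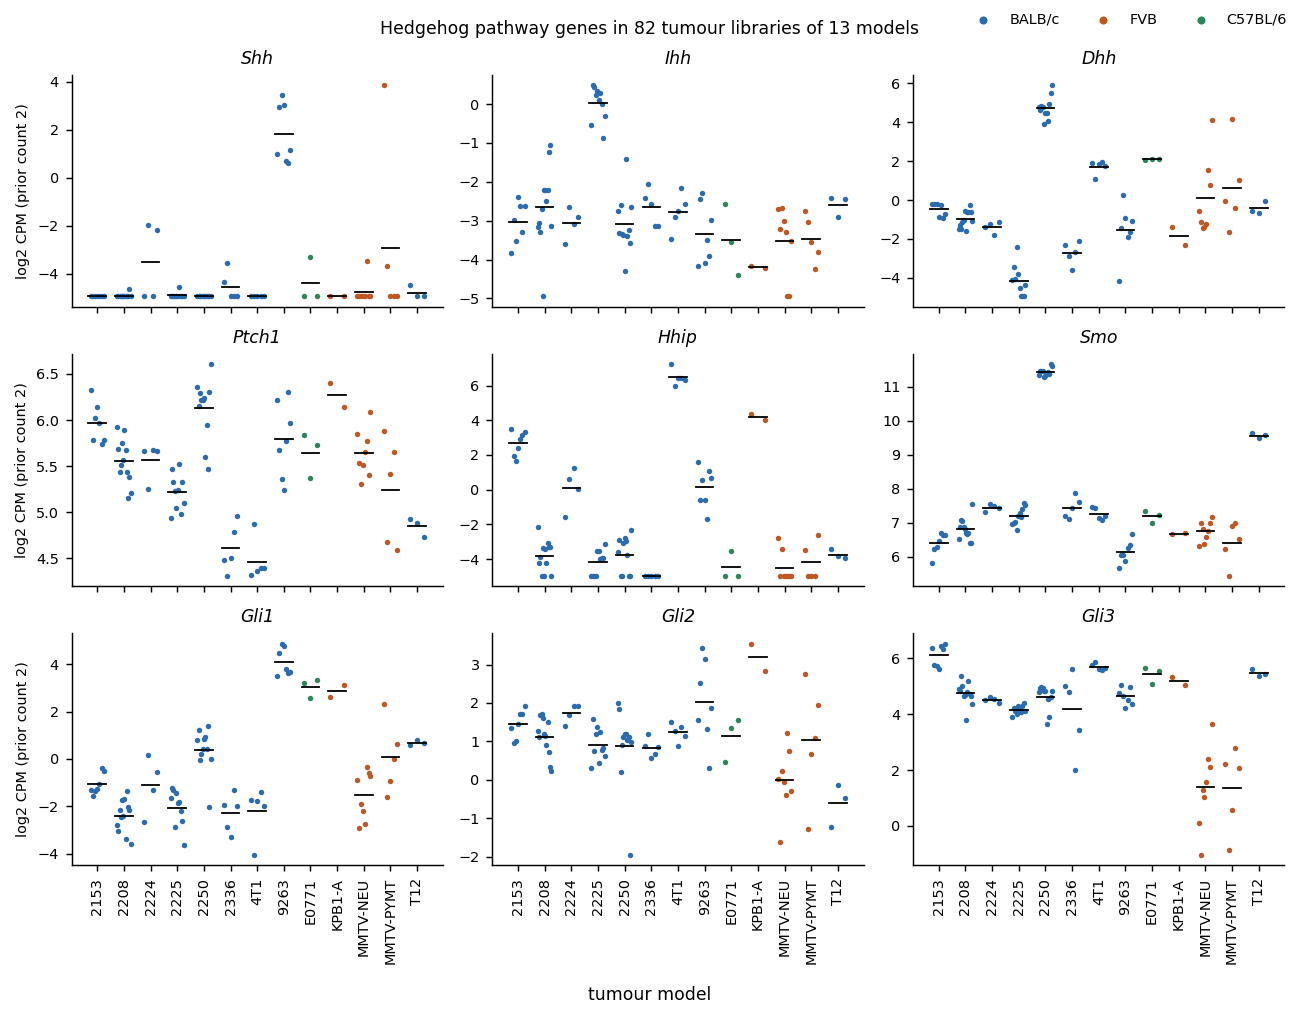
Level of each of the 9 genes in all 82 libraries, in log2 CPM (prior count 2, vertical axis), by model on the horizontal axis; points are libraries, coloured by strain, and bars are model means. Each ligand is highest in a different model, Smo stands apart in 2250 and T12, and Gli1 is highest in 9263, E0771 and KPB1-A.

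Among the ligands, each had its highest mean in a different model, while MMTV-PYMT was called higher for both Shh and Dhh. Shh (chr5:28456815-28467256, minus strand, mm10), the ligand best known from limb and neural tube patterning, had counts in all 7 libraries of 9263, at 1.93, 7.61, 10.8, 8.20, 1.60, 1.48 and 2.22 CPM. In MMTV-PYMT it was at 14.5 CPM in replicate 1, at 0.0449 in replicate 2 and at 0 in the other 3 libraries, and in 2224 at 0, 0.221, 0 and 0.190 CPM. Shh was therefore present throughout 9263 but in MMTV-PYMT rested on 1 tumour. It was called higher in 9263 (4.83 ± 3.898 CPM, SD, n = 7), MMTV-PYMT (2.90 ± 6.47, n = 5) and 2224 (0.103 ± 0.119, n = 4). These calls were not refitted without single libraries. All libraries were at 0 in 2153, 2250, 4T1 and KPB1-A, where 3 counts over the summed depth would give 0.0058, 0.0058, 0.0062 and 0.0338 CPM. This floor covers counting error only. Shh shares 446 exon bases with 9530036O11Rik and 361 with Gm26894 on the opposite strand, and since the strandedness of the counts is not stated, their reads cannot be told apart.

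Ihh (chr1:74945315-74951672, minus strand), the ligand known from bone growth and also made in mammary epithelium, was low everywhere but in 2225. There the lowest, median and highest libraries were at 0.518, 1.09 and 1.37 CPM, all above every library of the next model, 2208 (0 to 0.446 CPM). The difference of 2225 was 3.53 ± 0.24 (adjusted p = 1.58e-22), and that of 2208 0.78 ± 0.26 (adjusted p = 0.00736) with 7 of 12 libraries above the other models' mean, which was not called against the BALB/c models alone (0.32, adjusted p = 0.308). In KPB1-A Ihh was called lower (-2.30 ± 0.87, adjusted p = 0.0296) from 0.0237 and 0.0214 CPM, a call that was lost with DESeq2 (-2.40, adjusted p = 0.0743) and without either replicate (adjusted p = 0.163 and 0.191). Of its 34 tested neighbours, genes with any part within 500 kb, 27 were called higher in 2225 and 2 lower. Among all genes 61% were called in either direction there. The median difference of these neighbours was 2.30, with Wnt6 at 8.70 and Wnt10a, like Wnt6 a secreted Wnt ligand, at 4.58.

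Dhh (chr15:98891152-98898540, minus strand), the ligand known from Schwann cells and testis, was highest in 2250, with a lowest library of 15.1, a median of 27.4 and a highest of 60.3 CPM. Its mean there, 29.2 ± 13.01 CPM (n = 11), stood 5.47 ± 0.35 above the other models (adjusted p = 1.47e-23). It was also even in E0771 at 4.17, 4.30 and 4.25 CPM (2.46 ± 0.49) and in 4T1 at 3.74, 2.09, 3.64, 3.80 and 3.35 CPM (2.08 ± 0.42). In MMTV-PYMT and MMTV-NEU single tumours stood out instead. The MMTV-PYMT libraries were at 0.939, 0.292, 17.8, 0.735 and 2.00 CPM, and the difference of 2.49 ± 0.41 became 0.38 (adjusted p = 0.547) without replicate 3. The MMTV-NEU libraries ran from 0.341 to 2.88 CPM apart from 1 at 17.6 (1.93 ± 0.36, adjusted p = 3.36e-06), and only 3 of 8 were above the other models' mean. Without that library, replicate 8, the difference was 0.18 (adjusted p = 0.707), and with limma on the authors' normalized values 0.45 (adjusted p = 0.344). Dhh was lower in 2225 (0.0340 CPM, -5.58 ± 0.66), 2336 (0.131 CPM, -2.91 ± 0.71) and 9263 (0.430 CPM, -1.16 ± 0.51, adjusted p = 0.0497). The call in 9263 was lost when 2250 and T12 were left out of the reference (-0.70, adjusted p = 0.257). It was also lost without T12 and E0771 in it (-0.98, adjusted p = 0.102) and against the BALB/c models alone (-0.63, adjusted p = 0.319). Without the filter on low counts (-1.18, adjusted p = 0.0632) and without any of many single libraries of other models the call was lost as well. So 2225, highest for Ihh, was lowest for Dhh. Of 8 Schwann cell markers 3 were called higher and 2 lower in 2250, and their part in the Dhh level was not tested. Dhh shares 546 exon bases with Rhebl1 on its own strand, which stood at 5.59 CPM in 2250 and was not called (0.08 ± 0.14). It also shares 1107 with Gm49442 on the opposite strand, for which no level was at hand, and reads there cannot be told apart. Of 40 neighbours of Dhh 24 were higher and 6 lower in 2250, with a median of 0.48 and Lalba, a milk protein gene, at 11.90. Among all genes 59.8% were called in 2250, and 32.1% were called higher.

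The receptor and the inhibitor, both readouts of the pathway, differed in how far they ranged. Ptch1 (chr13:63508328-63573598, minus strand), the receptor that restrains Smo, was detected in every library. It was highest in KPB1-A at 84.5 and 70.3 CPM (0.86 ± 0.19) and in 2250, where the lowest, median and highest libraries were at 44.3, 74.6 and 97.2 CPM (0.74 ± 0.09, adjusted p = 4.41e-11, 11 of 11 above the other models' mean). It was also higher in 2153 (63.1 ± 9.70 CPM, n = 7; 0.54 ± 0.11) and 9263 (57.2 ± 15.7 CPM, n = 7; 0.39 ± 0.11). The lowest models were 4T1 at 19.9, 29.2, 20.5, 20.96 and 20.95 CPM (-1.08 ± 0.15), 2336 (24.7 CPM, -0.92 ± 0.15) and T12 at 30.3, 29.5 and 26.6 CPM (-0.68 ± 0.18), and 2225 was slightly lower (37.5 CPM, -0.27 ± 0.10), though not against the BALB/c models alone (-0.15, adjusted p = 0.195). In the order of the 13 means, only 2225 and T12 were neighbours whose libraries did not overlap.

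Hhip (chr8:79965851-80058006, minus strand), a membrane-bound decoy that takes up ligand, was near 0 in 8 models and graded in the other 5. In 4T1 the libraries were at 149, 61.8, 86.3, 85.2 and 80.1 CPM, in KPB1-A at 20.6 and 16.2, and in 2153 from 3.13 over a median of 7.52 to 11.1. These 3 models did not overlap one another: the mean of 4T1 was 5.02-fold that of KPB1-A, which was 2.60-fold that of 2153, and 2153 was 5.18-fold above 9263 (1.37 ± 0.94 CPM, n = 7). Hhip was called higher in these 4 models and in 2224 (1.28 ± 0.85 CPM, n = 4). In the other 8 models the means were at most 0.0596 CPM, 21.4-fold below 2224, and all 5 libraries of 2336 were at 0, where 3 counts would give 0.0106 CPM. Both readouts thus went opposite ways in 4T1, where Hhip was highest and Ptch1 lowest of the 13, and Gli1 was low as well (0.223 CPM). None of the 6 tested Hhip neighbours in 4T1 was called lower, and 2 were called higher, where 49.1% of all genes were called.

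Smo (chr6:29735503-29761365, plus strand), the transmembrane protein that relays the signal, stood far above the rest in 2250 and above all others but 2250 in T12. In 2250 the lowest, median and highest libraries were at 2515, 2795 and 3243 CPM, and in T12 the 3 libraries were at 794, 720 and 765 CPM. The next model, 2336, was at 146, 140, 173, 234 and 197 CPM. Neither 2250 and T12 nor T12 and 2336 overlapped, with ratios of the means of 3.68 and 4.26, while every further pair of neighbours in the order did. From 2336 the means fell through 2224 (175 CPM), 4T1 (155), 2225 (149), E0771 (148), 2208 (115), MMTV-NEU (111), KPB1-A (102), MMTV-PYMT (91.7) and 2153 (86.7) to 9263 (72.1 ± 16.5 CPM, n = 7). The difference was 4.31 ± 0.09 in 2250 (adjusted p = 2.49e-54) and 2.27 ± 0.13 in T12 (adjusted p = 3.82e-25). Since both raise the mean that the other models are set against, lower calls of Smo depend on it. Smo was called lower in 9263 (-1.41 ± 0.13), 2153 (-1.12 ± 0.13), MMTV-PYMT (-1.03 ± 0.15), KPB1-A (-0.86 ± 0.23), MMTV-NEU (-0.74 ± 0.12), 2208 (-0.67 ± 0.10) and 2225 (-0.27 ± 0.10). With 2250 and T12 left out of the reference, 9263 (-0.82), 2153 (-0.53) and MMTV-PYMT (-0.44) were still called. KPB1-A (-0.26, adjusted p = 0.361), MMTV-NEU (-0.14, adjusted p = 0.281) and 2208 (-0.07, adjusted p = 0.547) were then not called, and 2225 was called higher (0.34, adjusted p = 0.00229). Per kilobase of exon, Smo was the most abundant of the 9 genes in 2250 at 497 CPM per kb, ahead of Dhh at 6.64 and Ptch1 at 5.04. In 9263, its lowest model, the level of Smo was 12.8 CPM per kb, still above Ptch1 at 4.03 and Gli1 at 3.71.

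Genes beside Smo were high in the same models. Of 22 tested genes with any part within 500 kb of Smo, 21 were called higher in 2250 and none lower, with a median difference of 4.15. The share of all genes called higher was 32.1% in 2250 and 24.4% in T12. Tnpo3, a nuclear import receptor, was at 2528 ± 282 CPM in 2250 (n = 11; 4.06 ± 0.05), Tspan33, a tetraspanin, differed by 6.35 ± 0.16, Ube2h, a ubiquitin-conjugating enzyme, by 4.46 ± 0.08 and the transcription factor gene Nrf1 by 1.82 ± 0.05. The exception was Flnc, an actin crosslinker of muscle (-0.35 ± 0.48). In T12 the window was mixed, with 13 higher and 4 lower calls and a median of 0.97. There the calcium-binding protein gene Calu was higher by 2.83 ± 0.09, Tnpo3 by 1.74 ± 0.08 and Flnc by 6.37 ± 0.55, whereas Tspan33 (-2.05 ± 0.34), Ube2h (-0.65 ± 0.17) and Nrf1 (-0.53 ± 0.11) were lower. In 2208, for comparison, 4 of the 22 were higher and 8 lower, a share called near that of all genes there, 54.2%. These counts depend on the reference, which holds 2250: with 2250 and T12 left out of it, 11 were higher and 2 lower in 2208, 13 higher and 3 lower in T12, and 21 higher and none lower in 2250. Ube2h in T12 was then not called (-0.28, adjusted p = 0.168). Gene copy number was not measured here.

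**Figure D2:**
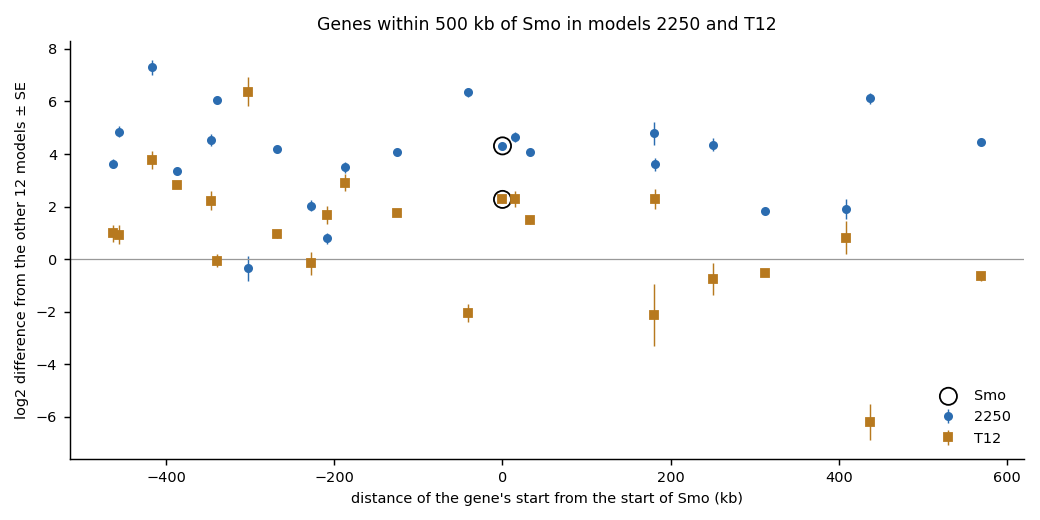
Log2 difference ± SE of each tested gene with any part within 500 kb of Smo (vertical axis) by the distance of its start from that of Smo in kb (horizontal axis) in 2250 (circles) and T12 (squares), with Smo ringed. In 2250 all genes but Flnc lie above 0, and in T12 13 of 22 were called higher and 4 lower.

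The transcription factors followed other models. Gli1 (chr10:127329882-127341974, minus strand), an activator whose own gene is a Hedgehog target, was highest in 9263, with a lowest library of 11.5, a median of 13.96 and a highest of 29.3 CPM (4.58 ± 0.27, adjusted p = 1.15e-25). E0771 followed at 9.28, 5.99 and 10.01 CPM (3.35 ± 0.34, adjusted p = 5.35e-14) and KPB1-A at 6.11 and 8.60 CPM (3.14 ± 0.41, adjusted p = 9.92e-10). 9263 did not overlap E0771, nor KPB1-A the next model, MMTV-PYMT, and the ratios of these means were 2.20 and 4.43. The MMTV-PYMT libraries were at 5.02, 0.292, 0.496, 0.959 and 1.52 CPM, and the call there (0.82 ± 0.36, adjusted p = 0.0468) turned to -0.18 (adjusted p = 0.779) without replicate 1, the library with Shh at 14.5 CPM, and was also lost without the filter, with DESeq2 and with limma (adjusted p = 0.059, 0.0541 and 0.711). Gli1 in the Smo-high models was modest. T12 was at 1.46, 1.71 and 1.56 CPM (0.74 ± 0.45, adjusted p = 0.173, not called). The 2250 libraries ran from 0.208 over 1.32 to 2.56 CPM (0.61 ± 0.26, adjusted p = 0.0401, 10 of 11 above the other models' mean). That call in 2250 was lost without the filter on low counts (0.57, adjusted p = 0.0685) and with limma on the authors' normalized values (0.55, adjusted p = 0.138). Gli1 was lower in 2208 (-2.70 ± 0.34), 2336 (-2.44 ± 0.50), 4T1 (-2.32 ± 0.48), 2225 (-2.23 ± 0.35), MMTV-NEU (-1.55 ± 0.38) and 2153 (-1.14 ± 0.37), all at means of at most 0.468 CPM. The call in 2153 was lost against the BALB/c models alone (-0.52, adjusted p = 0.225). Gli1 shares 62 exon bases with Arhgap9 and 265 with Gm47200 on the opposite strand, and reads there cannot be told apart. Arhgap9 was at 51.5 CPM in E0771 and higher by 3.34 ± 0.22 there, close to the Gli1 difference, at 13.8 CPM in 9263 (1.27 ± 0.19) and at 8.39 CPM in KPB1-A (0.50 ± 0.36, not called).

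Gli2 (chr1:118834132-119053619, minus strand), the main activator that receives the signal, was higher in KPB1-A at 11.6 and 7.08 CPM (2.14 ± 0.39) and in 9263 (5.05 ± 3.51 CPM, n = 7; 1.17 ± 0.25), where libraries ran from 1.21 to 10.7 CPM. It was lower in T12 at 0.396, 0.881 and 0.683 CPM (-2.01 ± 0.50) and in MMTV-NEU (1.10 CPM, -1.23 ± 0.30). Gli3 (chr13:15463235-15730026, plus strand), whose processed form is the main repressor, was higher in 2153 (71.3 ± 18.7 CPM, n = 7; 1.74 ± 0.23), 4T1 (51.7 ± 4.27 CPM, n = 5; 1.23 ± 0.27), T12 (44.8 CPM, 1.01 ± 0.35) and E0771 (43.8 CPM, 0.97 ± 0.35). The calls in T12 and E0771 were each lost without replicate 1 (adjusted p = 0.0753 and 0.0944). That in T12 was also lost against the BALB/c models alone (0.57, adjusted p = 0.195), and that in E0771 without replicate 3 (adjusted p = 0.0661). Gli3 was lower in MMTV-NEU (3.85 ± 3.80 CPM, n = 8; -2.85 ± 0.32) and MMTV-PYMT (3.53 ± 2.57 CPM, n = 5; -2.95 ± 0.40). The next model above these, 2225, stood 4.65-fold over MMTV-NEU with no overlap of libraries. So Gli1, Gli2 and Gli3 had their highest means in 9263, KPB1-A and 2153.

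**Figure D3:**
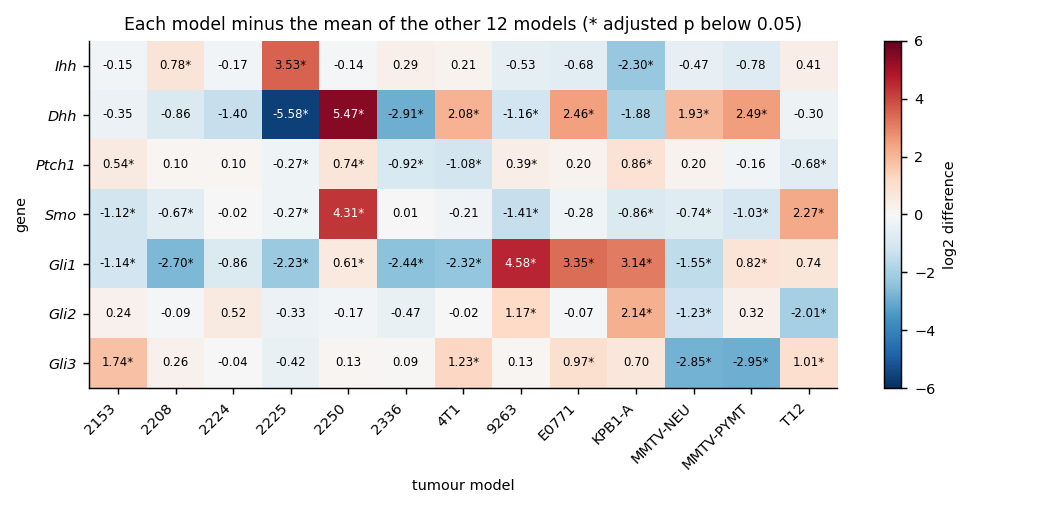
Log2 difference of each model (horizontal axis) from the mean of the other 12 for the 7 genes with a fitted difference (vertical axis), as colour and number; a star marks an adjusted p under 0.05. 2250 has 4 higher and no lower calls, and 2224 has none.

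Smo was then set against Gli1 and Ptch1 across the 13 model means of log2 CPM (prior count 2). Pearson's r was -0.02 for Gli1 and 0.00 for Ptch1, given as descriptions of 13 points, 9 of which share the BALB/c strain. The Spearman values were -0.23 and -0.38, and without 2250 r was -0.13 and -0.55. In the 9 BALB/c models r was 0.10 and 0.11. The models show this directly: 9263 had the lowest Smo and the highest Gli1, while T12 had the second highest Smo with low Ptch1, and 2250 joined the highest Smo to high Ptch1 and modest Gli1. Among the other pairs, r over the 13 means was 0.55 for Smo with Dhh, 0.56 for Gli1 with Shh, 0.50 for Gli1 with Ptch1 and 0.62 for Gli2 with Hhip.

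**Figure D4:**
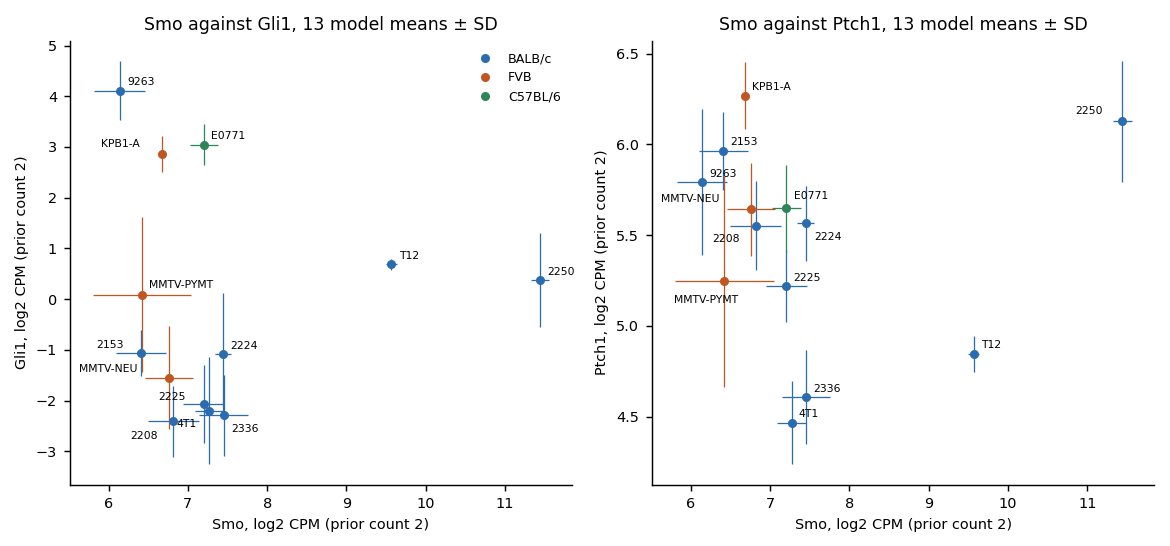
Model means ± SD of log2 CPM (prior count 2) of Gli1 (left, vertical axis) and Ptch1 (right, vertical axis) against Smo (horizontal axis) for 13 models, coloured by strain. 2250 and T12 lie far to the right without the highest Gli1, and 9263, KPB1-A and E0771 have the highest Gli1 without high Smo; r was -0.02 for Gli1 and 0.00 for Ptch1.

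Within models the same question was asked over all 82 libraries, with 1 mean per model and a slope on the deviation of Smo from its model mean, in log2 units per log2 unit. The slope of Gli1 on Smo was -0.29 ± 0.42 (edgeR adjusted p = 0.711; 95% interval -1.12 to 0.55). That of Ptch1 was 0.13 ± 0.12 (edgeR adjusted p = 0.521; 95% interval -0.11 to 0.37), so a slope of 1 lies outside both intervals. Of all genes 11.8% were called in either direction on Smo, and none of the 8 other members was. Dhh came nearest with 1.501 ± 0.53 (adjusted p = 0.0522) and passed under several alternatives. Among these were DESeq2 size factors (1.59, adjusted p = 0.0454) and log2 total count as a covariate (1.52, adjusted p = 0.0419). It also passed with the fibroblast score below as a covariate (1.68, adjusted p = 0.0106) and without some models, such as 2208 (2.13, adjusted p = 0.0117). The slope of Dhh was 0.75 (adjusted p = 0.321) without MMTV-NEU replicate 8 and -0.37 in the BALB/c models alone. The within-model SD of Smo was 0.29 log2 units, which limits the precision of these slopes. In the 6 models with at least 6 libraries, 12 correlations were computed, and none had an adjusted p under 0.05. The most extreme was Gli1 in 2250 (r = -0.73, permutation p = 0.0093, adjusted p = 0.112; Spearman -0.61, permutation p = 0.0503), which was -0.24 without the 2 libraries farthest in Smo and so rests on them. Replicate 10 among these had the highest Smo of 2250 with the lowest Gli1 (0.208 CPM) and Gli2 (0.226 CPM). For Gli1 the other models ran from r = -0.44 in 2225 to 0.66 in 2153 (exact permutation p = 0.112, adjusted p = 0.448), and for Ptch1 from -0.67 in 2153 to 0.37 in 2250. The 2225 value became -0.86 (exact permutation p = 0.00179, adjusted p = 0.0214) without its 2 libraries farthest in Smo. The same removal left 5 libraries in 9263 and took Gli1 there from -0.32 to -0.93 (exact permutation p = 0.025, adjusted p = 0.15) and Ptch1 from 0.23 to 0.91 (exact permutation p = 0.0417, adjusted p = 0.167). For Gli1 the removal so went to a more negative value in 2225 and 9263 and to a less negative one in 2250.

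Slopes on the deviation of Gli1 were fitted in the same way. On Gli1, 17.9% of all genes were called in either direction and 11% with a positive slope. Among the 8 other members 2 were called, both positive, too few to set the members apart from all genes. These were Shh with 2.24 ± 0.28 (adjusted p = 4.02e-07) and Gli2 with 0.53 ± 0.08 (adjusted p = 7.18e-06), the latter not called with the fibroblast score below as a covariate (0.29, adjusted p = 0.174). Of the readouts among the members, Ptch1 had a slope of -0.01 ± 0.04 (adjusted p = 0.883) and Hhip 0.32 ± 0.19 (adjusted p = 0.246). The slope of Shh was 1.02 (adjusted p = 0.0194) without MMTV-PYMT replicate 1, 1.37 (adjusted p = 0.0022) without that model and 0.40 (adjusted p = 0.0232) with limma on the normalized values, where each 0 is listed as 1. In 9263, replicates 2, 3 and 4, with Shh at 7.61, 10.8 and 8.20 CPM, also had Gli1 at 22.3, 29.3 and 27.8 CPM and Gli2 at 5.73, 10.7 and 8.75 CPM. The other 4 had Shh of at most 2.22, Gli1 of at most 13.96 and Gli2 of at most 3.61 CPM. In both genes and in Shh these 3 libraries thus stood above the other 4. In the readout Ptch1 these 3 libraries stood below the other 4, at 51.2, 41.0 and 37.9 CPM against 54.6 to 78.8. They were also the shallowest of their model, at 23.4, 25.4 and 35.4 M counts against 42.7 to 116 M. Their labels carry consecutive numbers, as do those of replicates 5, 6 and 7. In 9263 these levels thus cannot be told apart from depth or from the set of libraries. MMTV-PYMT replicate 1 also had the highest Shh, Gli1 and Gli2 (6.69 CPM) of its model.

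Fibroblast markers moved with these libraries. The summed CPM of 12 fibroblast markers (Col1a1, Pdgfra and others) was 6051, 11565 and 6914 in replicates 2, 3 and 4 of 9263 against 851 to 2049 in the other 4. In MMTV-PYMT replicate 1 it was 3549, below 4458 in replicate 5, which had no Shh count. On the deviation of Gli1 12 of 12 fibroblast markers were called with a positive slope, against 11% of all genes. So were 5 of 6 endothelial, 5 of 6 macrophage and 4 of 5 adipocyte markers. The same held for 3 of 5 basal, 3 of 6 pericyte and smooth muscle and 3 of 6 skeletal muscle markers. Of 8 Schwann cell markers 2 were positive and 2 negative, and 3 of 8 epithelial markers had a negative slope. On Smo 0 of 12 fibroblast markers were called. The score is the mean log2 CPM of these 12 markers. In bulk tissue, fewer cells of a type and less RNA per cell cannot be told apart.

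**Figure D5:**
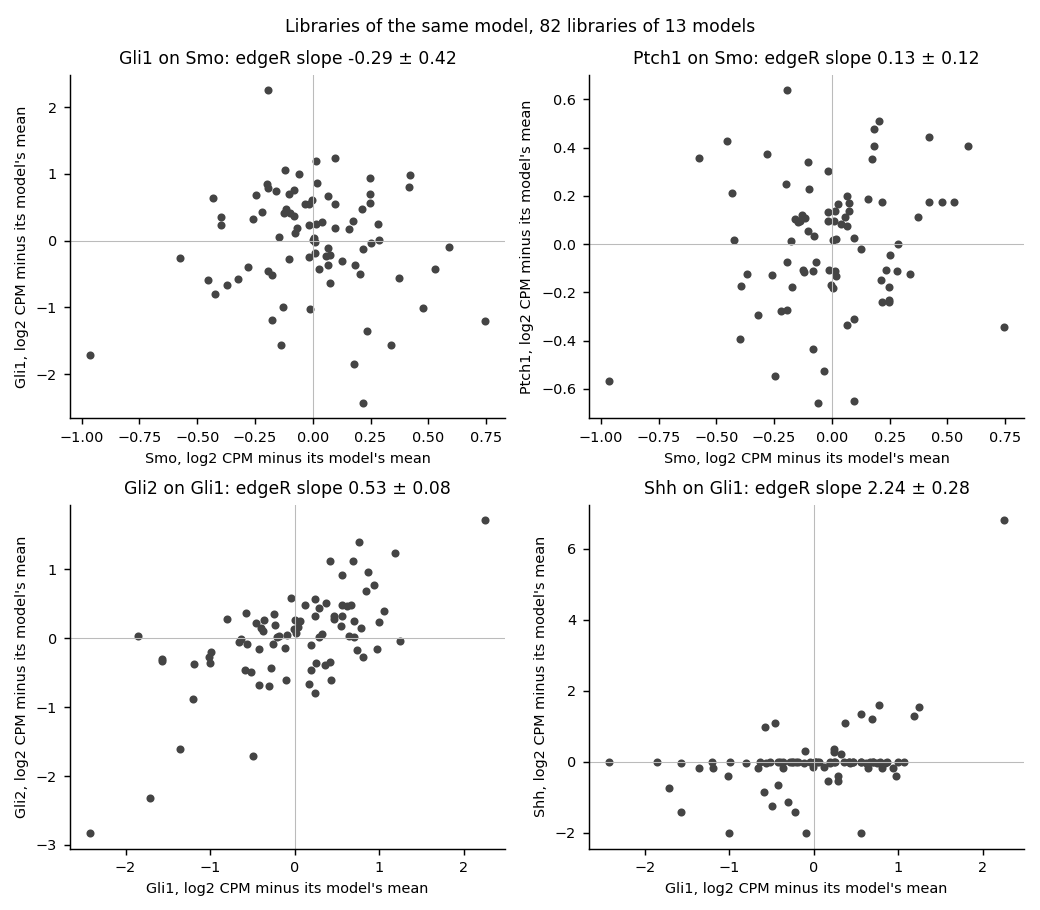
Deviation of each of 82 libraries from its model mean, in log2 CPM, with Gli1 and Ptch1 against Smo, and Gli2 and Shh against Gli1; each point is a library. Gli1 and Ptch1 scatter about 0 along Smo (slopes -0.29 and 0.13), Gli2 rises with Gli1 (slope 0.53), and the slope of Shh on Gli1 leans on MMTV-PYMT replicate 1 at the upper right.

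Slopes were also fitted for 43 further pathway genes. On Smo 8 were called with a positive slope and 0 with a negative one, 18.6% against 11.8% of all genes, with a median of 0.11 against -0.01 for all genes. Among these were Sfrp1, a secreted Wnt modulator (1.66 ± 0.22), Lrp2 (1.46), Kif7, a ciliary kinesin (0.70), Ccnd1, cyclin D1 (0.70), the ligand acyltransferase Hhat (0.56), Ift27 (0.40) and the ligand release protein Disp1 (0.34). On Gli1 6 were positive and 3 negative, 20.9% against 17.9% of all genes, with a median of 0.03 against -0.01. The positive ones included the ligand release factor Scube2 (0.74), Gpc3 (0.44), Foxf2 (0.32), Mycn (0.29) and Arrb2 (0.23), and the negative ones Efcab7 (-0.13), Gsk3b (-0.10) and Csnk1a1 (-0.08).

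Between models, the same 43 genes gave calls both ways. For comparison, 54.4% of all genes were called in 9263 (32.5% higher), 61% in 2225 and 59.8% in 2250 (32.1% higher). In 9263, where Shh and Gli1 were highest, 18 were higher and 12 lower, with a median of 0.17 against 0.05 for all genes. Mycn, a target gene in neural precursors, was higher by 4.10, and Scube1, a ligand release factor, was the largest lower call (-2.96). In 2225, where Ihh was highest, 19 were higher and 11 lower, led by Scube3, like Scube1 a secreted release factor (5.34), and Scube1 (-2.07). In 2250, with the highest Smo and Dhh, 13 were higher and 17 lower, with a median of -0.14 against -0.05. The largest calls were Scube1 (377 ± 107 CPM, n = 11; 5.99 ± 0.19), and Ccnd1, a cell cycle gene (-3.99).

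In T12, the other Smo-high model, 12 were higher and 17 lower, led by Foxf2 (5.24), a stromal forkhead gene, and Scube1 (-7.31). KPB1-A had 17 higher and 6 lower (median 0.45), led by Scube3 (6.71) and Scube1 (-1.99), the latter not called without replicate 1 (-1.39, adjusted p = 0.122), and E0771 had 12 higher and 23 lower (median -0.43), led by Disp2 (5.57) and Scube1 (-6.31). Of all genes 48.2% were called in T12 (24.4% higher), 39.2% in KPB1-A and 56.4% in E0771. The pathway counts were 18 higher and 12 lower in 2153, 14 and 20 in 2208 and 16 and 8 in 2224. They were 15 and 15 in 2336, 21 and 12 in 4T1, 15 and 20 in MMTV-NEU and 7 and 19 in MMTV-PYMT. The shares of all genes called in these models were, in turn, 53.1%, 54.2%, 38.7%, 55.5%, 49.1%, 62.4% and 51.5%. Epithelial markers bear on the 2 models E0771 and T12: 8 of 8 were called lower in each, with Epcam at 0.948 and 0.660 CPM, though Krt8 remained at 374 and 287 CPM. In 2250 8 of 8 epithelial markers were higher, and of 12 fibroblast markers 3 were lower and none higher. Their part in the pathway levels was not tested.

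Among 13289 genes of at least 1 CPM, those most like Smo over the 13 model means were Tnpo3 (r = 0.957), Calu (0.924), Atp6v1f (0.904), Fam71f1 (0.892) and Strip2 (0.885), all on chromosome 6. Over the within-model deviations of the 82 libraries they were Fam149a (0.722), Cog7 (0.709), Dnajc22 (0.705), Sfrp1 (0.7002) and Maged2 (0.691), and no gene was in both lists. For Gli1 the model means gave Nup98 (0.869), Cluh (0.852), Kif21b (0.851) and Mrps16 (0.850) among the leading 5, and the deviations Oaf (0.740), Atoh8 (0.737), Slc12a4 (0.731), Mmp14 (0.728) and Bgn (0.728). Ptch1 was most like Pbk (0.885), Ppp1r7 (0.869) and Kif14 (0.853) over the means and Rabgap1 (0.740) over the deviations. Points share model, strain and depth, and these values are descriptions.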

How the data were processed

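Gene expression was measured by mRNA sequencing of 82 tumours. The authors deposited expected counts (estimated counts per gene) for 47480 genes. A second table, also deposited, gives normalized signal by the authors, in which each count appears scaled to the upper quartile of the non-zero counts of its library with 1 in place of 0, and served in the limma alternative alone. STAR, SAMtools, Picard, Salmon and build mm10 are named, without versions, per the submitters' processing notes. Libraries were grouped by model from the labels.

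Counts were rounded and fitted with edgeR 4.0.16 in R 4.3.3: low genes were removed by filterByExpr with the model as group (at least 10 counts, 15 in total), followed by TMM scaling, robust quasi-likelihood, 1 mean per model, 69 residual degrees of freedom (68 with a slope). Each model was compared with the unweighted mean of the other 12. P-values were adjusted by Benjamini and Hochberg over all genes tested, and calls needed an adjusted p under 0.05. Each SE was derived as the size of the log2 difference over the root of its F statistic. Levels are CPM from the TMM-scaled library sizes. Correlations within models used exact permutations, or 100000 for 10 or more libraries, in scipy 1.17.1, adjusted over 12. The tests were tested on simulated data.

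Positions are from GENCODE M21 on mm10. Named genes were the 9 members, the largest call each way among 43 further pathway genes per model, the 5 genes most like Smo, Gli1 and Ptch1, and neighbours (any part of the gene within 500 kb) where a member was higher by 3 log2 units. For T12 and 2208 the Smo window was added after the values were seen. Mycn, Krt8 and the pathway genes with a slope were likewise chosen after seeing their values. The members and lists were chosen with earlier results of these data known. Alternatives were size factors from DESeq2 1.42.0, its own test, limma 3.58.1, no filter on low counts, other references, a fibroblast covariate, and leaving out libraries or models. Depth ran from 14.4 to 133 M counts per library. A few genes that the rules name are not reported here.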

Additional observations from a re-analysis of the deposited data

Results flagged for a closer look

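Libraries were compared in 69 combinations of member and model with 4 to 10 libraries. In 7 of these, the gap of 1 library to the nearest other one was large for the range of its group. The cut-off gives about 1 in 20 by chance for normally distributed values. That rate does not carry over to low counts, as in the 2 Shh cases of 1 count below. Shh was at 14.5 CPM in MMTV-PYMT replicate 1 against at most 0.0449 in the other 4. Shh was at 0.00999 CPM in 2225 replicate 7 and at 0.0575 CPM in MMTV-NEU replicate 6, in each case 1 count where all other libraries of the model had 0. Ptch1 was at 38.2 CPM in 2224 replicate 2 against 50.6 to 51.2 in the others. 4T1 replicate 2 stood apart in 3 members: Dhh was at 2.09 CPM against 3.35 to 3.80, Ptch1 at 29.2 CPM against 19.9 to 20.96, and Gli1 at 0.0277 CPM (3 counts) against 0.216 to 0.343. The causes were not tested.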

How the results depend on the processing

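Of 79 called differences and further slopes of single genes, 60 kept direction and side of the threshold under every alternative run, 18 lost a call under at least 1, and 3 reversed under at least 1. These counts leave out the 4 slopes of Gli1, Ptch1 and Hhip and the correlations, which follow. Single libraries were left out in the 7 models with 2 to 5 libraries, and elsewhere, chosen after seeing the data, MMTV-NEU replicate 8, 2250 replicate 10 and 2208 replicate 12; no other library of the larger models was left out. The 49 calls of members became 45 to 50 without 1 of these libraries, 46 without the filter and 45 with limma. They became 47 without T12 and E0771, and 48 with 2250 and T12 out of the reference (chosen after seeing the data). The 9 BALB/c models compared among themselves gave 33 calls. Since the 49 also include calls in models of other strains, 33 cannot be read as a loss from 49. All 9 members passed the F test throughout. The slope of Gli1 on Smo within models was 0.0698 with the fibroblast covariate and -0.63 to -0.09 without 1 of these libraries. The slope of Ptch1 on Smo within models was -0.00861 in BALB/c models alone and 0.02 to 0.21 without 1 of these libraries. The slope of Ptch1 on Gli1 within models, near 0, was 0.000895 with limma, 0.0285 with the fibroblast covariate, 0.00888 without 2250, 0.00746 without 4T1, 0.00704 without 9263 and -0.0684 to 0.00917 without 1 of these libraries. That of Hhip on Gli1 was 0.22 to 0.37 without 1 of these libraries. Correlations with Smo changed sign for Gli1 in 2208 without the 2 libraries farthest in Smo (0.0238), for Ptch1 in 2250 likewise (-0.0910), and by Spearman for Ptch1 in 2208 (0.0210), 2225 (0.0182) and MMTV-NEU (-0.0714), and Gli1 in 2225 reached -0.86 without its 2 farthest. Dhh on Smo, not called in the main fit, was -0.37 in BALB/c models alone. It passed with the fibroblast covariate (1.68, edgeR adjusted p = 0.0106) and under several other alternatives. Gli1 in MMTV-PYMT was -0.18 to 1.09 without 1 of these libraries, and Smo in 2225 was 0.34 with 2250 and T12 out of the reference. The causes were not tested. A model left with 1 library is assumed to vary like the others. No paired analysis was possible because replicate numbers only follow the order of deposit. Depth limits Shh, Ihh and Hhip, which had few or no counts in most models.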
